A study of Mus musculus with 6 samples.

Results

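10 lipoprotein and cholesterol efflux genes were followed in mouse bone marrow-derived macrophages after knockdown of Piezo1, a mechanically gated cation channel. They were Apoe, Apoc2, Pltp, Lpl, Abca1, Abcg1, Scarb1, Nr1h3, Mylip and Lpcat3. Each symbol matched 1 Ensembl identifier of the deposited table, so the set was 10 of 55401 genes, and all 10 passed the filter on low counts that left 15959 genes. The genes were chosen by name with the difference between siPiezo1 and siNC in these same libraries already known, in particular the opposite course of Abcg1 and Apoe. Their levels and fold changes in that contrast are therefore descriptions, and no test is drawn from them. The 6 libraries were 3 of C57BL/6 macrophages transfected with an siRNA against Piezo1 (siPiezo1) and 3 of C57BL/6 macrophages transfected with a negative-control siRNA (siNC). Cells of both groups were stretched mechanically for 4 h, and unstretched cells were not analysed here. The age and number of the animals are not given in the labels, and nothing in them says that replicates came from separate cultures, so any p-value reflects the spread among these libraries alone, and that spread may be technical.

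Macrophages take up large amounts of cholesterol from lipoproteins and dying cells and cannot break down the sterol ring, so they export it. Liver X receptors (LXRs), nuclear receptors that bind oxidized cholesterol and pair with the retinoid X receptor, switch on the export genes. The transporter ABCA1 passes cholesterol and phospholipid to lipid-poor apolipoproteins, ABCG1 passes cholesterol to mature high-density lipoprotein, and apolipoprotein E, which macrophages secrete, accepts lipid and carries it to receptors on other cells.

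The response element of LXR is a direct repeat of the hexamer AGGTCA with a spacer of 4 bases. RefSeq windows of GRCm38.p6 were at hand for 10 transcription starts of 7 of the 10 genes, and the 250 bases before each start were searched on both strands for AGGTCA, any 4 bases and AGGTCA again, with up to 3 of the 12 fixed letters different. The allowance of 3 was set after the element long known in the Abca1 promoter was not met with a stricter one. The Abca1 window, chr4:53159896-53160145 on the minus strand, held the only match, at bases -67 to -52 from the start. It is printed with the match in capitals, and on its own strand the match reads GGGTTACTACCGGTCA. Because the allowance was set with this site in mind, the search cannot show that this stretch is the known element. An Apoe window, chr7:19699189-19699438 on the minus strand, is printed for comparison because Apoe differed most in level between libraries among the genes with a window after Pltp. It is 1 of 3 Apoe windows, and the other Apoe windows held no match either. Sites outside these 250 bases were not searched, so a window without a match does not show that a gene lacks the element. Of 32841 windows of the same length, 18.5% held such a match and 14% held AGGTCA on either strand, so the match is a description of the letters and not of binding.
Abca1: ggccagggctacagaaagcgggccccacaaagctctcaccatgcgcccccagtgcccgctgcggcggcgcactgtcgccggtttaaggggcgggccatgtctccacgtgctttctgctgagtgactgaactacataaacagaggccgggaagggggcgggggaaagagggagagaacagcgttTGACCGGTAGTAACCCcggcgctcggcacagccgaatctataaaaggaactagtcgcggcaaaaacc
Apoe: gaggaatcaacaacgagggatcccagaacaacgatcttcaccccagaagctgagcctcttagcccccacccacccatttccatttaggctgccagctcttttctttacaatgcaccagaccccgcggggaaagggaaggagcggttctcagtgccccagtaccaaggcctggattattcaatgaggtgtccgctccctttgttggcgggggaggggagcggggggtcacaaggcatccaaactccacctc

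The libraries held 61086684 to 75052745 estimated counts. Piezo1 stood at 111, 109 and 113 CPM (counts scaled to a common library size) in siPiezo1, against 180, 285 and 189 CPM in siNC. The siNC 2 library stood apart from the other 5, with 11 of 12 neutrophil and granule markers, 8 of 8 markers of inflammatory activation and 5 of 5 proliferation markers at their highest there. Summed levels were 635 to 668 CPM in siPiezo1, 3446 CPM in siNC 2 and 662 and 710 CPM in siNC 1 and 3 for the neutrophil list. For inflammatory activation they were 268 to 352 CPM in siPiezo1, 2317 CPM in siNC 2 and 208 and 215 CPM in siNC 1 and 3. For proliferation they were 368, 465 and 559 CPM in siPiezo1, 750 CPM in siNC 2 and 314 and 326 CPM in siNC 1 and 3. The 8 macrophage markers summed to 33744 to 36405 CPM in siPiezo1, 26753 CPM in siNC 2 and 33663 and 34523 CPM in siNC 1 and 3, so the labelled cell type was borne out in every library. All 8 lymphocyte markers and 5 of 6 dendritic cell markers were under 1 CPM, Cd3e, Cd3g, Trbc2, Ncr1 and Siglech being at 0. Among adipocyte markers Lep, Plin1 and Cidec were at 0 and Adipoq was at most 0.159 CPM, while Fabp4, which macrophages also make, had 57.6, 61.9 and 46.5 CPM in siPiezo1, against 82.4, 29.6 and 89.7 CPM in siNC. Fabp4 thus had siPiezo1 between siNC 2 and the rest of siNC, as Apoe had. The other lists summed to at most 17.2 CPM for stroma, 23.7 CPM for endothelium, 9.16 CPM for mast cells and basophils and 7.33 CPM for erythroid cells, with the endothelial lipase anchor Gpihbp1 at 0. Because siNC 2 moves the mean of its group, fold changes of the 10 genes are given below with it and without it.

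Apoe, the gene of the secreted lipid carrier apolipoprotein E, had 257, 244 and 240 CPM in siPiezo1, against 677, 101 and 712 CPM in siNC. The siPiezo1 libraries lay within 1.07-fold of each other and fell in the gap between siNC 2 below and siNC 1 and 3 above. The group means were 247 ± 9.14 CPM in siPiezo1 and 497 ± 343 CPM in siNC (SD, n = 3 each). The fitted log2 fold change of siPiezo1 over siNC was -1.01 ± 0.63 (SE) with all 6 libraries and -1.50 ± 0.06 (SE) without siNC 2. In these bulk samples, fewer cells that express a gene and less of its RNA per cell cannot be told apart.

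Pltp encodes the phospholipid transfer protein, which moves phospholipid between lipoproteins. It had 77.9, 83.8 and 68.3 CPM in siPiezo1, against 211, 27.6 and 227 CPM in siNC. The order of the libraries was that of Apoe: siNC 2 lowest, siPiezo1 between, siNC 1 and 3 highest. The log2 fold change was -1.02 ± 0.67 (SE) with 6 libraries and -1.52 ± 0.09 (SE) without siNC 2. Exons of Ctsa, on the opposite strand, cover 19.3% of the exon bases of Pltp, and whether counting used the strand is not given in the sources used here. Ctsa had 842, 939 and 852 CPM in siPiezo1, against 808, 730 and 900 CPM in siNC, and its part in the Pltp values was not tested.

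Lpl, the gene of lipoprotein lipase, which splits the triglyceride of lipoproteins, had 497, 498 and 462 CPM in siPiezo1, against 965, 390 and 964 CPM in siNC. Again siPiezo1 lay between siNC 2 and the other control libraries, at 50.4% of the mean of siNC 1 and 3. Its log2 fold change was -0.67 ± 0.33 (SE) with 6 libraries and -0.99 ± 0.06 (SE) without siNC 2. Apoc2, the cofactor that activates this lipase, took another course, with 23.2, 27.1 and 28 CPM in siPiezo1, against 18.7, 11.3 and 21.3 CPM in siNC. Every siPiezo1 library was above every siNC library, siNC 2 was again the lowest, and the log2 fold change was 0.61 ± 0.24 (SE) with 6 libraries and 0.38 ± 0.12 (SE) without siNC 2. A read-through gene, Gm44805, covers 79.5% of the Apoc2 exon bases on the same strand but was credited with at most 0.254 CPM.

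**Figure D1:**
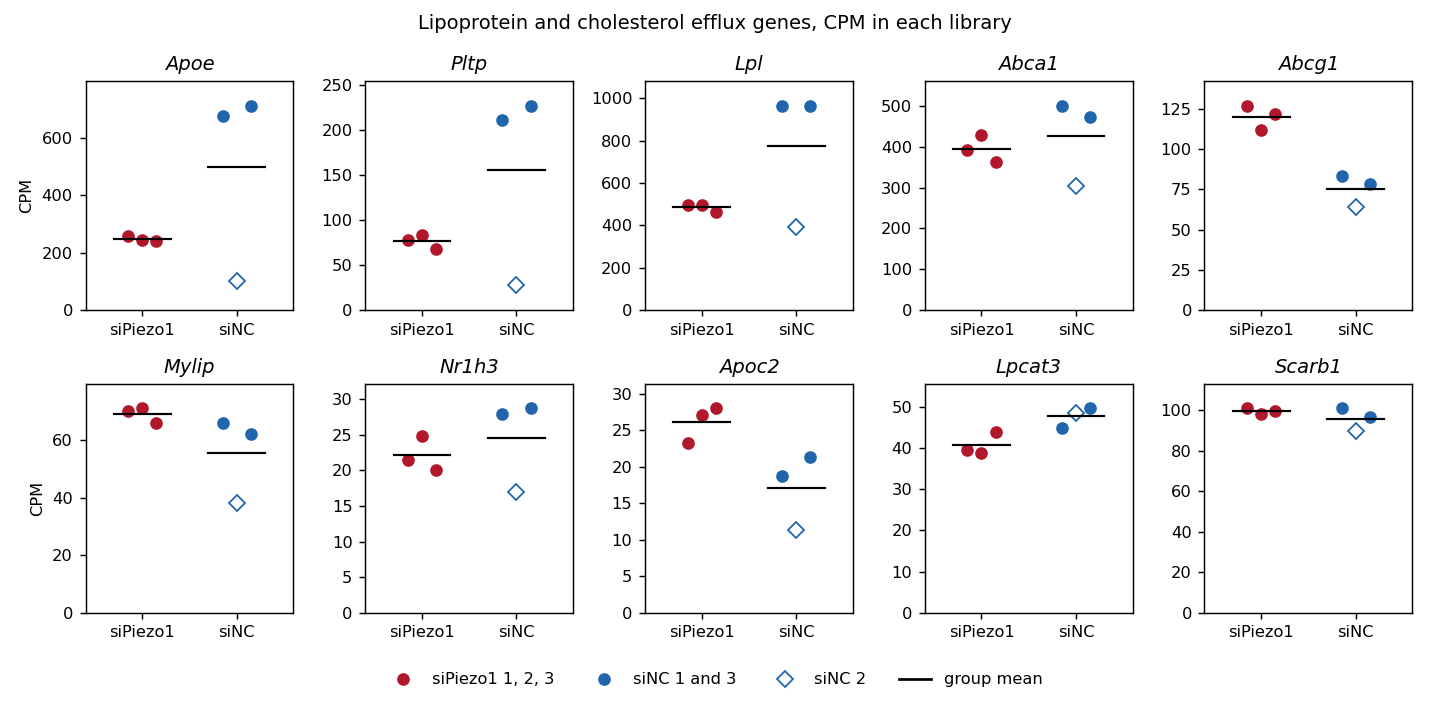
CPM of the 10 genes (vertical axes, linear from 0) in each siPiezo1 library (left, filled red) and each siNC library (right, blue), with siNC 2 as an open diamond and the group mean as a line. The siPiezo1 points of Apoe, Pltp, Lpl, Abca1 and Nr1h3 lie between siNC 2 and the other siNC libraries, those of Abcg1, Apoc2 and, by less than the rounding, Mylip lie above all siNC libraries, and those of Lpcat3 below.

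Among the exporters, Abcg1 had 127, 112 and 122 CPM in siPiezo1, against 83.4, 64 and 78.2 CPM in siNC. The groups did not overlap, and siPiezo1 averaged 1.49-fold of siNC 1 and 3. The log2 fold change was 0.68 ± 0.12 (SE) with 6 libraries and 0.57 ± 0.07 (SE) without siNC 2. Abca1, its partner in export, had 391, 428 and 364 CPM in siPiezo1, against 501, 305 and 472 CPM in siNC. Its siPiezo1 values lay inside the range of siNC, with a log2 fold change of -0.11 ± 0.19 (SE) with 6 libraries and -0.31 ± 0.08 (SE) without siNC 2. The sign for Abca1 turned to 0.02 when siNC 1 was left out. Scarb1, the gene of the scavenger receptor SR-BI that exchanges cholesterol with high-density lipoprotein, had 101, 98 and 99.8 CPM in siPiezo1, against 101, 89.8 and 96.7 CPM in siNC. The groups overlapped, and the log2 fold change was 0.06 ± 0.08 (SE) with 6 libraries and 0.01 ± 0.06 (SE) without siNC 2.

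Nr1h3 encodes LXR alpha, the receptor that also switches on its own gene in human macrophages. It had 21.5, 24.8 and 20.1 CPM in siPiezo1, against 27.9, 16.9 and 28.7 CPM in siNC. The siPiezo1 values lay between siNC 2 and the rest of siNC, with a log2 fold change of -0.15 ± 0.22 (SE) with 6 libraries and -0.36 ± 0.12 (SE) without siNC 2. Mylip, whose product IDOL marks lipoprotein receptors for breakdown, had 70, 71.1 and 66 CPM in siPiezo1, against 66, 38.1 and 62.2 CPM in siNC. The lowest siPiezo1 and the highest siNC value of Mylip round to the same number, and its log2 fold change was 0.32 ± 0.20 (SE) with 6 libraries and 0.10 ± 0.07 (SE) without siNC 2. Lpcat3, which puts polyunsaturated chains into membrane phospholipids, had 39.4, 38.7 and 43.9 CPM in siPiezo1, against 44.9, 48.5 and 49.6 CPM in siNC. It was the one gene of the set that was not lowest in siNC 2, and the groups did not overlap. Its log2 fold change was -0.23 ± 0.09 (SE) with 6 libraries and -0.22 ± 0.09 (SE) without siNC 2. Exons of Emg1 on the opposite strand cover 10.2% of its exon bases, and Emg1 had 33.4, 39 and 40.3 CPM in siPiezo1, against 40.7, 48.1 and 39.4 CPM in siNC.

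**Figure D2:**
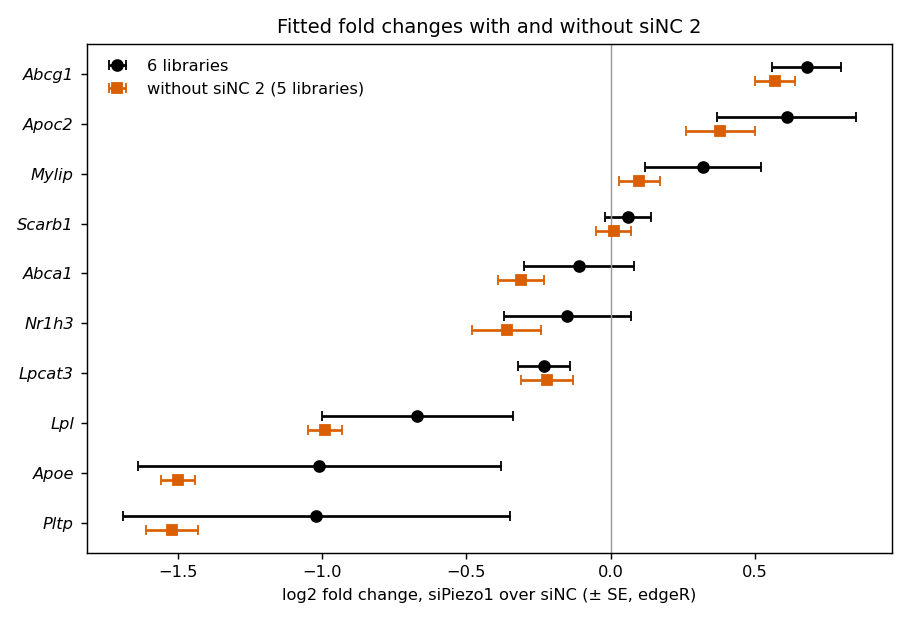
Log2 fold changes of siPiezo1 over siNC (horizontal axis) with their SE for the 10 genes, from the fit to all 6 libraries (black circles) and without siNC 2 (orange squares). The SE of Apoe was 0.63 with siNC 2 and 0.06 without it, and Abcg1 lay at 0.68 and 0.57.

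Calls were made with edgeR's quasi-likelihood test at an adjusted p under 0.05 (Benjamini-Hochberg over all genes tested). With 6 libraries 0 of the 10 genes passed, where 0.00627% of all genes did; 3 were under 0.05 unadjusted, where 4.93% of all genes were, and DESeq2 called 1, Abcg1, higher, where it called 0.551% of all genes in either direction and 0.288% higher. Without siNC 2, 3 were called lower (Apoe, Pltp and Lpl) and 1 higher (Abcg1), where 0.45% of all genes were called lower, 0.645% higher and 1.09% in either direction. DESeq2 without siNC 2 called 5, adding Abca1 to the lower ones, where it called 6.51% of all genes, 3.67% higher and 2.84% lower. In 4 of the 10 genes no siPiezo1 value fell within the siNC range or the reverse with 6 libraries, against 11.9% of all genes; 3 were higher, against 6.24%, and 1 lower, against 5.65%. All siPiezo1 values lay above siNC 2 and below siNC 1 and 3 for 5 of the 10, against 7.07% of all genes, and the reverse order held for 7.01% of all genes. The genes were picked on this contrast, so nothing is read from these counts.

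The genes differed from each other in how siNC 2 and siPiezo1 stood against the other control libraries. Relative to siNC 1 and 3, Apoe differed by -2.78 in siNC 2 and by -1.49 in siPiezo1 on the log2 CPM scale. Pltp differed by -2.98 in siNC 2 and -1.52 in siPiezo1, and Lpl by -1.31 and -0.99 in the same order. For Abcg1 the values were -0.34 in siNC 2 and 0.57 in siPiezo1, and for Apoc2 -0.82 and 0.39, so these genes were on the other side of siNC 1 and 3 in siPiezo1. For Mylip they were -0.75 in siNC 2 and 0.11 in siPiezo1. Markers of neutrophils, inflammatory activation and proliferation were also high in siNC 2, and their part in these differences was not tested. In siPiezo1 the inflammatory and proliferation lists lay above siNC 1 and 3 and below siNC 2, and their part in the siPiezo1 values of Apoe, Pltp and Lpl was not tested either.

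**Figure D3:**
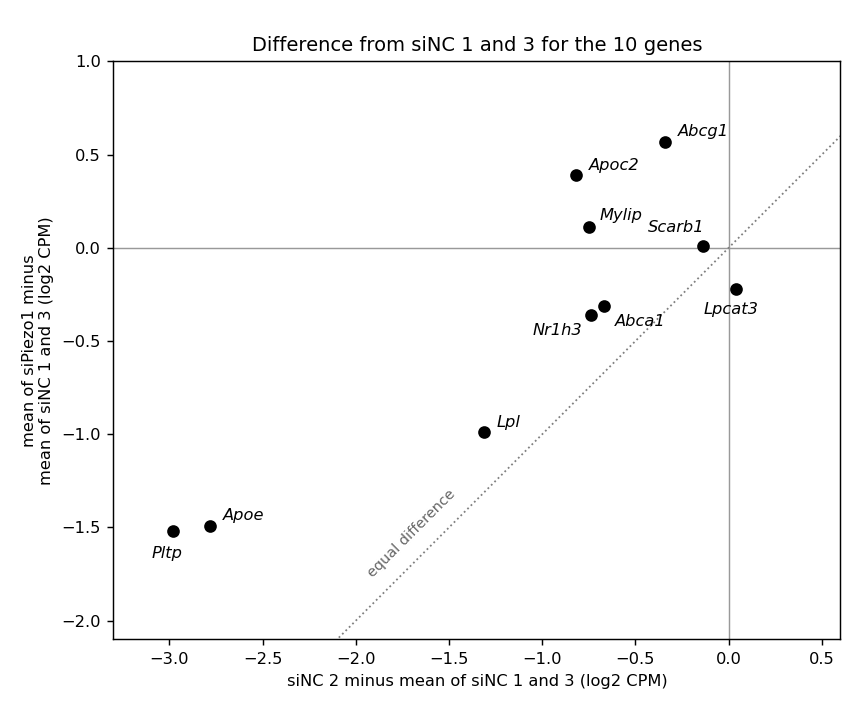
Difference from the mean of siNC 1 and 3 in log2 CPM for each of the 10 genes, in siNC 2 (horizontal axis) and in the mean of siPiezo1 (vertical axis), with a dotted line where both are equal. Apoe and Pltp lie far down on both axes, while Abcg1 and Apoc2 lie below 0 in siNC 2 and above 0 in siPiezo1.

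Ratios within a library do not depend on the scaling between libraries. They are given on the TPM scale (each count divided by the gene's summed exon length and scaled to a common total). They divide the same counts by each other for genes picked on this contrast, so they are descriptions only. The Pltp to Apoe ratio was 0.253, 0.286 and 0.238 in siPiezo1, against 0.26, 0.229 and 0.266 in siNC, so it was nearly the same in every library while both genes varied severalfold. The Abcg1 to Apoe ratio was 0.144, 0.135 and 0.149 in siPiezo1, against 0.0361, 0.186 and 0.0321 in siNC. The siPiezo1 ratios were above those of siNC 1 and 3 and below that of siNC 2. The Abcg1 to Abca1 ratio, which compares the 2 ABC exporters, was 0.46, 0.372 and 0.476 in siPiezo1, against 0.236, 0.298 and 0.235 in siNC. Here every siPiezo1 library was above every siNC library. The Apoc2 to Apoe ratio was 0.237, 0.292 and 0.307 in siPiezo1, against 0.0726, 0.296 and 0.0785 in siNC, which overlap through siNC 2.

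On the same per-length scale the order of levels in siPiezo1 was Apoe (336 ± 11.7 TPM), Lpl (135 ± 6.39), Abca1 (111 ± 10), Apoc2 (93.5 ± 9.52), Pltp (87.1 ± 9.63), Mylip (62.1 ± 2.86), Abcg1 (48 ± 2.48), Lpcat3 (36.2 ± 2.33), Scarb1 (34.1 ± 0.297) and Nr1h3 (25.6 ± 3.1 TPM; SD, n = 3). Of these neighbours only Apoc2 and Pltp overlapped between libraries, and Lpcat3 and Scarb1 came within 1 TPM of each other. In siNC the same genes averaged 675 ± 466 TPM for Apoe, 214 ± 91.9 for Lpl, 120 ± 29.7 for Abca1, 61.1 ± 18.3 for Apoc2, 176 ± 125 for Pltp, 49.8 ± 13.6 for Mylip, 30 ± 4.03 for Abcg1, 42.4 ± 1.97 for Lpcat3, 32.8 ± 1.97 for Scarb1 and 28.3 ± 7.57 for Nr1h3 (SD, n = 3). Apoe ranked first in siPiezo1, in siNC 2 and in the mean of siNC 1 and 3. Pltp had rank 5 in siPiezo1, rank 7 in siNC 2 (31.4 TPM) and rank 3 in siNC 1 and 3 (248 TPM). Abcg1 had rank 7 in siPiezo1, rank 9 in siNC 2 (25.5 TPM) and rank 10 in siNC 1 and 3 (32.2 TPM), just under Nr1h3 (32.7 TPM). Divided by the longest transcript instead, Lpl had 278 TPM in siPiezo1 and 441 TPM in siNC, and Scarb1 took rank 6 of 10 in siPiezo1, so its place depends on which of its exons are counted.

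The genes with the pattern most like that of Apoe across the 6 libraries were sought among 8393 named genes with a mean of at least 10 CPM, by the root mean square difference of their centred log2(CPM + 1) values. The nearest was Pltp, at 0.10, where Apoe itself varied by 0.97 on the same measure. The next 3 were C1qa (0.20), C1qb (0.23) and C1qc (0.23), which encode the chains of complement C1q, made by macrophages, and the fifth was Gpr162 (0.27), an orphan receptor. C1qa had 35.8, 45.5 and 27.2 CPM in siPiezo1, against 95.8, 13.9 and 102 CPM in siNC. C1qb had 128, 132 and 80.3 CPM in siPiezo1, against 332, 47.2 and 376 CPM in siNC, with siPiezo1 between siNC 2 and the rest of siNC as for Apoe. Lpl came at rank 33 (0.49), Nr1h3 at 335, Abca1 at 399 and Abcg1 at 5799.

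Nearest to Abcg1, which varied by 0.36 on that measure, were Ccser1 (0.10), Pla2g7 (0.10), Fpr2 (0.10), Rasgrp1 (0.11) and Mcoln3 (0.12). Fpr2 encodes a formyl peptide receptor, Rasgrp1 an activator of Ras, and Mcoln3 a cation channel of endosomes and lysosomes. Pla2g7, the gene of the lipoprotein-bound enzyme that breaks down platelet-activating factor, had 1841, 1661 and 1866 CPM in siPiezo1, against 1373, 1096 and 1374 CPM in siNC. Fpr2 had 404, 338 and 391 CPM in siPiezo1, against 278, 239 and 280 CPM in siNC. Within the set, Apoc2 came at rank 89 (0.20) and Mylip at 153 (0.22), while Abca1 came at 5081 and Apoe at 8300 of 8393. The measure is not scaled for how much each gene varies, and Apoe itself varied by 0.97. A large distance therefore need not be an opposite course. Apoe and Abcg1 were also picked for their opposite course, so their ranks against each other are descriptions only.

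**Figure D4:**
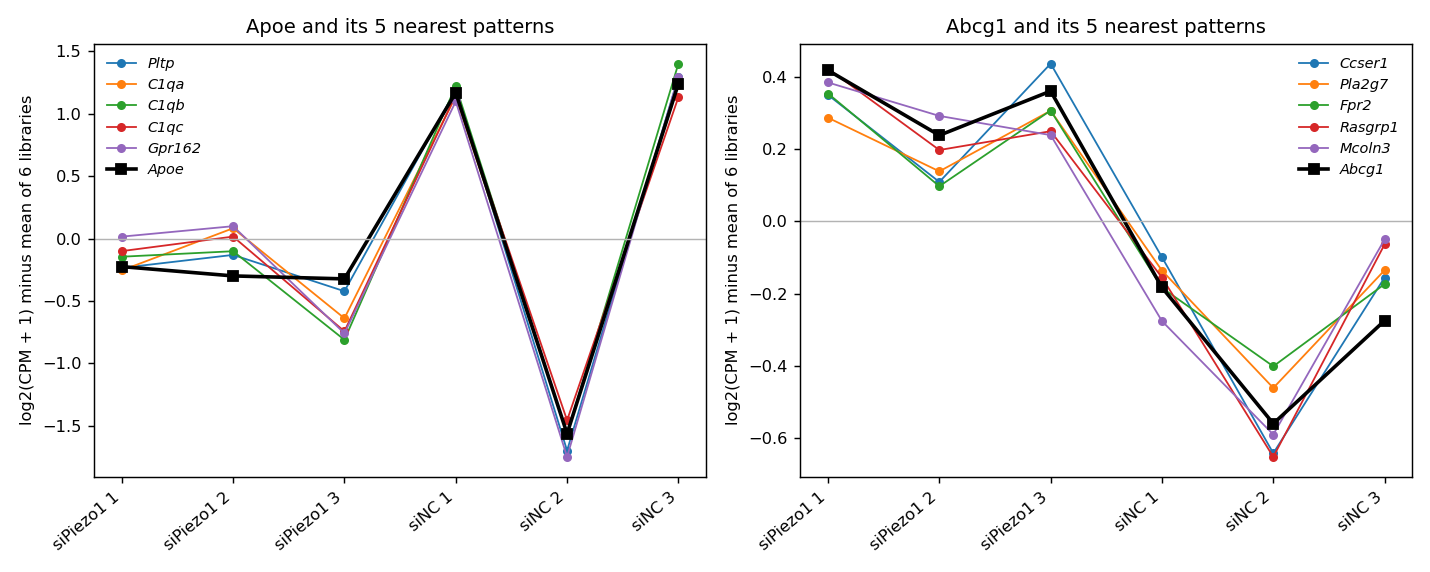
Log2(CPM + 1) minus its mean over the 6 libraries (vertical axes) for Apoe (left) and Abcg1 (right), in black, with the 5 genes of the nearest pattern each, siPiezo1 libraries on the left of each panel. Pltp and the C1q genes follow Apoe with a root mean square difference of 0.10 to 0.23, and Pla2g7 follows Abcg1 at 0.10.

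Apoe and Apoc2 sit in 1 cluster on chromosome 7 with Apoc1 and Apoc4, on the same strand, between Clptm1 and Tomm40. Apoc4 was at 0 in 5 of 6 libraries and at 0.0531 CPM in siPiezo1 2, and Apoc1 was at most 0.673 CPM, so of the cluster only Apoe and Apoc2 were present at levels that can be compared. Clptm1, next to the cluster, had 164, 175 and 173 CPM in siPiezo1, against 164, 175 and 160 CPM in siNC. Tomm40, a mitochondrial import pore, had 36.6, 34.6 and 37.2 CPM in siPiezo1, against 39.7, 42.8 and 40.8 CPM in siNC. Relb, an NF-kB subunit, had 50.6, 49 and 44.3 CPM in siPiezo1, against 61.1, 34.4 and 59.5 CPM in siNC. Of these only Relb had siPiezo1 between siNC 2 and the rest of siNC, as Apoe had, over a much smaller range. The log2 fold changes of Nectin2, Bcam and Bcl3 were 0.18 ± 0.21, 0.78 ± 0.42 and 0.03 ± 0.09 (SE), and Cblc was at 0. Of the 7 tested genes here other than Apoe and Apoc2, 0 passed edgeR's quasi-likelihood test with 6 libraries or without siNC 2.

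Around the 10 genes, 198 others of the same pathways were listed, with earlier results of these data known. Of 162 tested with 6 libraries, 0 passed edgeR's quasi-likelihood test. At an unadjusted p under 0.05, 5 were higher and 18 lower (over all genes, 2.52% higher and 2.41% lower). DESeq2 called 1 higher (Saa3), where it called 0.288% of all genes, and 3 lower, where it called 0.263%. Among the lower ones was Hsd17b7, an enzyme of cholesterol synthesis. Without siNC 2, edgeR called 2 of 164 higher, where 0.645% of all genes were, and 9 lower, where 0.45% of all genes were. Over all genes tested the median log2 fold change was -0.01 with 6 libraries, and 52% were below 0.

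Of 18 tested partner receptors and cofactors of LXR apart from Nr1h3, 9 were below 0 with 6 libraries (median 0.00) and 13 without siNC 2 (median -0.07), and edgeR called 0 in either. At an unadjusted p under 0.05 there were 0 with 6 libraries and 2 lower without siNC 2, where 6.71% of all genes were lower and 7.54% higher at that p. Nr1h2, which encodes LXR beta, had 44.7, 66 and 48 CPM in siPiezo1, against 53.5, 49 and 51.2 CPM in siNC, groups that overlap. Rxra, a retinoid X receptor that pairs with LXR, had 87.9, 92.2 and 73.3 CPM in siPiezo1, against 119, 78.8 and 141 CPM in siNC. Its log2 fold change was -0.42 ± 0.21 (SE) with 6 libraries and -0.62 ± 0.12 (SE) without siNC 2 (edgeR quasi-likelihood, adjusted p = 0.0668; DESeq2, adjusted p = 0.000203), and that of Rxrb was 0.18 ± 0.10 (SE) with 6 libraries.

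Of 13 tested LXR targets outside the set, 8 were below 0, with a median of -0.04 with 6 libraries and -0.08 without siNC 2, and 0 were called in either. Abcg5, Abcb11, Cyp7a1 and Slc2a4, which work in liver, gut, fat or muscle, were at 0 in every library. Of the ABC transporters outside the set, 11 of 16 were above 0 with a median of 0.16 (0.12 without siNC 2), and 0 were called with 6 libraries or without siNC 2. Among the other apolipoproteins, 16 of 21 were under 1 CPM throughout. Saa3, an acute-phase protein of high-density lipoprotein, had 6253, 6205 and 6889 CPM in siPiezo1, against 4305, 5082 and 4512 CPM in siNC. Its log2 fold change was 0.48 ± 0.11 (SE) with 6 libraries (edgeR quasi-likelihood, adjusted p = 0.81) and 0.55 ± 0.06 (SE) without siNC 2 (adjusted p = 0.0113). Unlike Apoe it was above siNC 1 and 3 in siNC 2. Among the other 21 tested lipases, transfer and remodelling genes the median was 0.05 with 6 libraries and 0.01 without siNC 2, and the only call was Pla2g7, higher without siNC 2 (log2 fold change 0.38 ± 0.06, SE; edgeR quasi-likelihood, adjusted p = 0.0351; 0.857 with 6 libraries).

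Receptors that bring lipoproteins into the cell had a median of 0.02 over 22 tested genes outside the set (-0.01 without siNC 2), with 0 calls with 6 libraries and 4 lower without siNC 2, where 0.45% of all genes were. Cd36, a scavenger receptor for oxidized lipoprotein and fatty acids, had 526, 520 and 474 CPM in siPiezo1, against 663, 359 and 653 CPM in siNC. Stab1, also a scavenger receptor, had 441, 470 and 383 CPM in siPiezo1, against 622, 422 and 664 CPM in siNC. Lrp6, a Wnt co-receptor, had 89.9, 98.2 and 87.1 CPM in siPiezo1, against 127, 85.3 and 123 CPM in siNC. In these 3 the siPiezo1 libraries lay below siNC 1 and 3 and siNC 2 was the lowest siNC library. Without siNC 2 their log2 fold changes were -0.38 ± 0.06, -0.58 ± 0.09 and -0.45 ± 0.07 (SE), and edgeR's quasi-likelihood test gave adjusted p of 0.0351, 0.0291 and 0.0297, against 0.991, 0.978 and 0.978 with 6 libraries.

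Genes of cholesterol esterification, storage and lysosomal export had 15 of 28 tested members below 0 with 6 libraries (median -0.01) and 21 of 28 without siNC 2 (median -0.10), and 0 were called in either. Gramd1a, which carries cholesterol between plasma membrane and endoplasmic reticulum, had 61.3, 65.1 and 65.1 CPM in siPiezo1, against 78.7, 79.9 and 74.5 CPM in siNC (log2 fold change -0.28 ± 0.08, SE; edgeR quasi-likelihood, adjusted p = 0.885). Cav1, the gene of caveolin, had 11.3, 10.5 and 6.22 CPM in siPiezo1, against 18.1, 13.8 and 21.9 CPM in siNC (-0.94 ± 0.28, SE; adjusted p = 0.954 in the same edgeR test). The PPAR list, which shares Lpl and Cd36, had 12 of 16 tested genes other than Lpl below 0 and a median of -0.09 (-0.13 without siNC 2), and its only call outside the set was Cd36, lower without siNC 2. SREBP2 targets, which make cholesterol and take it up, had 24 of 27 below 0 and a median of -0.32 with 6 libraries, where 0 passed, and 6 were called lower without siNC 2 (0.45% of all genes), where the median was -0.41. Among these Hmgcs1, an early enzyme of the pathway, had 66.9, 66.8 and 56.6 CPM in siPiezo1, against 125, 69.6 and 122 CPM in siNC. Its siPiezo1 libraries lay below every siNC library, and the log2 fold change without siNC 2 was -0.97 ± 0.09 (SE; edgeR quasi-likelihood, adjusted p = 0.00357; 0.974 with 6 libraries). Also called without siNC 2 were Fdps and Sqle (-0.68 ± 0.08 and -0.72 ± 0.09, SE), both enzymes of that pathway.

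**Figure D5:**
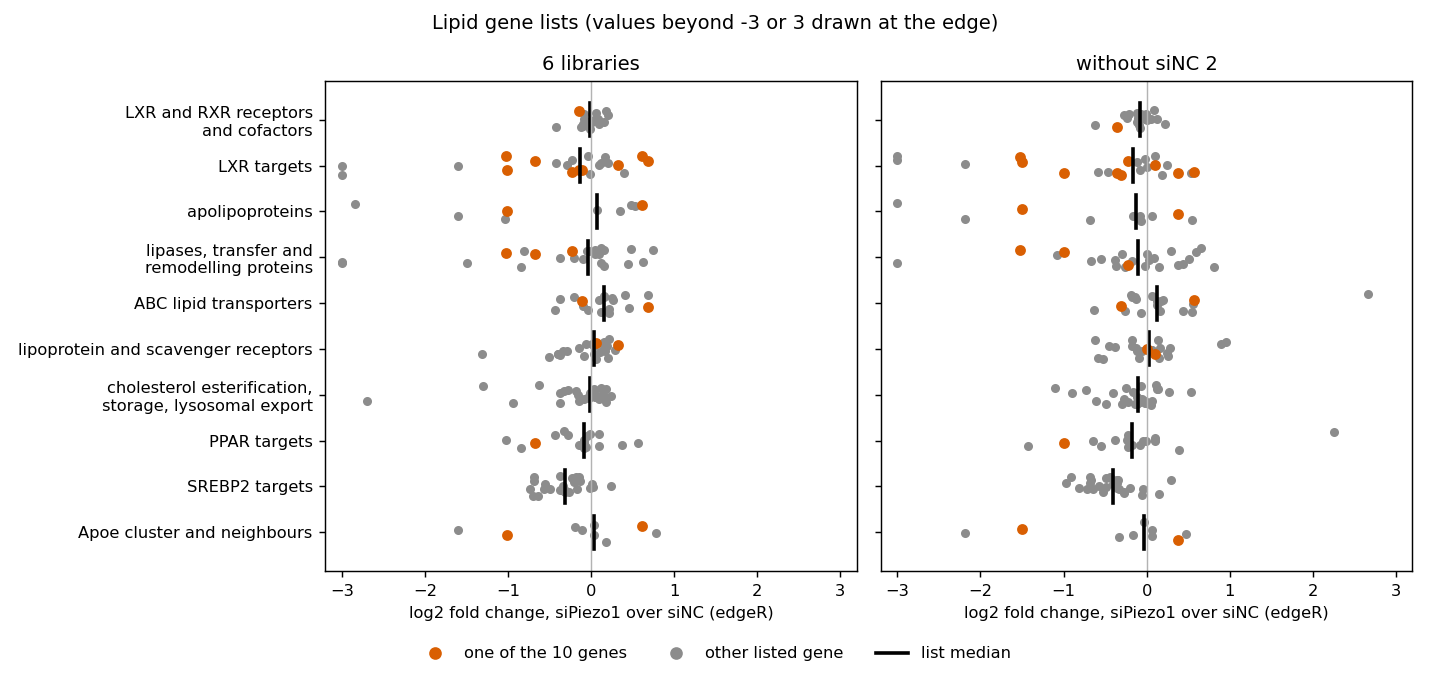
Log2 fold changes of siPiezo1 over siNC (horizontal axes; values beyond -3 or 3 drawn at the edge) for every tested gene of the 10 lipid gene lists, with 6 libraries (left) and without siNC 2 (right), the 10 genes in orange and each list's median as a bar. The SREBP2 targets lie furthest from 0 by median, at -0.32 and -0.41. Medians, which here include the 10 genes, are above 0 in both panels for the ABC transporters (0.16 and 0.12). The same holds for the lipoprotein and scavenger receptors (0.04 and 0.03).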

How the data were processed

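Poly(A) RNA of 6 macrophage libraries was sequenced as paired-end reads with dUTP strand marking, per the labels' protocols. Per the submitters' processing notes, cutadapt 1.9, HISAT2 2.0.4, StringTie 1.3.4d, DESeq2 and edgeR were used with the build GRCm39; the role of each, the annotation release and the strand setting are not stated in the labels or notes. The authors deposited whole-number estimated counts per Ensembl gene, not scaled between samples. Counts of 3 to 30 were most often near multiples of 3.87 to 3.90, so 1 fragment is worth several counts and counting error is larger than the counts alone imply; the lowest count of any of the 10 genes was 856. The design had assumed counts, and the same test was used without rounding.

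Samples were grouped by title, and 0 columns were left unmapped. Symbols, exon lengths and gene order came from GENCODE M21 (GRCm38), which matched 55141 of 55401 identifiers; no coordinates of genes are given because the builds differ. Genes were filtered with filterByExpr, scaled with TMM (factors 0.988 to 1.028) and tested with edgeR 4.0.16 in R 4.3.3 (quasi-likelihood, robust, group only). Benjamini-Hochberg adjustment at 0.05 was over all genes tested, 15959 with 6 libraries and 16442 without siNC 2, where the filter was applied anew. SE is |log2 fold change| over the root of F. The test was checked on simulated counts in which no library stood apart as siNC 2 does, so that check does not cover such a library. BLAST 2.17.0 found no gene other than overlapping ones that shared 250 bases at 90% identity with any of the 10.

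The genes and lists were chosen with earlier results of these data known, as was the choice to show values without siNC 2. Named genes are the 10, up to 4 called per list or else the 2 of smallest p, the neighbours of Apoe, and the 5 nearest patterns of Apoe and Abcg1 (mean of at least 10 CPM, pseudocount 1). Nr1h2 and Hsd17b7 were named after their values were seen. Some listed genes enter the counts but are not reported here by name. Alternatives were DESeq2's size factors, no filter, a minimum of 50 counts in 3 libraries, limma-voom (limma 3.58.1), DESeq2 1.42.0, the replicate number as a block, and each library left out; DESeq2 without siNC 2 was added after seeing the data.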

Additional observations from a re-analysis of the deposited data

How the results depend on the processing

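With 6 libraries and edgeR, 0 genes were called higher and 1 lower; DESeq2's size factors, no filter, the stricter filter and limma-voom gave the same counts. DESeq2 called 46 higher and 42 lower, and without siNC 2 it called 604 higher and 467 lower, with 5 of the 10 genes among them. Leaving out 1 library at a time, edgeR called 0 to 106 genes higher and 0 to 74 lower, the upper ends without siNC 2. With the replicate number as a block 0 genes were called lower. The numbers share only a label: deviations from the group means correlated at 0.0296, -0.062 and -0.0861 for the same-numbered libraries 1, 2 and 3. No library correlated best with the one of its own number. The fold changes of the 10 genes kept their sign in all 13 alternatives except Abca1 (0.02 without siNC 1), and Apoe ranged between -1.50 and -0.56, Pltp between -1.52 and -0.51, Lpl between -0.99 and -0.48 and Abcg1 between 0.57 and 0.76. Of 143 list medians under alternatives, 1 moved by more than the spread between replicates, that of the apolipoproteins (-0.26 without siNC 1, against 0.07 with 6 libraries). Medians of 5 lists within 0.07 of 0 changed sign in some alternatives. With 3 libraries a group, and 2 siNC libraries once siNC 2 is left out, the spread of each gene is poorly known.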

Other observations

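The lipid genes below were named after their values were seen. Cd5l, an LXR target that macrophages secrete, had 19.8, 17.1 and 9.28 CPM in siPiezo1, against 184, 14.5 and 206 CPM in siNC, so siPiezo1 and siNC 2 were both far below siNC 1 and 3. Its log2 fold change was -3.13 ± 0.91 (SE) with 6 libraries (edgeR quasi-likelihood, adjusted p = 0.94) and -3.66 ± 0.39 (SE) without siNC 2 (adjusted p = 0.0699), so it passed edgeR's threshold in neither, while DESeq2 without siNC 2 gave an adjusted p of 1.51e-18. Mertk, a receptor for dying cells and also an LXR target, had 55.6, 74.3 and 57.7 CPM in siPiezo1, against 94.4, 32.1 and 93.8 CPM in siNC.

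Other genes were high in siNC 2 alone. Ch25h, which makes a hydroxylated cholesterol, had 1.01, 0.744 and 0.852 CPM in siPiezo1, against 0.691, 15.4 and 0.748 CPM in siNC. Olr1, a receptor for oxidized lipoprotein, had 3.82, 3.32 and 4.17 CPM in siPiezo1, against 2.35, 24.1 and 1.54 CPM in siNC. Lipg, the gene of endothelial lipase, had 0.266, 1.54 and 0.344 CPM in siPiezo1, against 0.691, 18.7 and 0.314 CPM in siNC.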
